A study of Saccharomyces cerevisiae with 6 samples.

Results

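The heat shock proteins described here are 10 chaperone genes of the budding yeast cytosol, taken by name from the 7126 genes of the deposited table: HSP26, HSP42, HSP104, HSP82, HSC82, SSA1, SSA2, SSA3, SSA4 and SSB1. The rule is their names, with no threshold on a measured value. The study grew the haploid wild-type strain BY4741, a laboratory strain of the S288C background with deletions in nutritional marker genes, overnight in synthetic complete (SC) medium. Glucose was the carbon source in one group and glycerol in the other, with 3 biological replicates each, and no other treatment or allele distinguished the groups. In both, the cell wall was digested for a short time at room temperature with an enzyme mix before RNA was taken. Poly(A) RNA was sequenced without strand information, and the question here is how transcripts of stress-induced chaperones and of their constitutive relatives differed between the carbon sources.

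Chaperones of the cytosol work as a relay. Small heat shock proteins hold unfolding proteins in loose assemblies, the Hsp104 ring pulls single chains out of aggregates, and Hsp70 proteins refold them with the help of J-domain proteins and nucleotide exchange factors. Hsp90 completes the folding of client proteins such as kinases, and Ssb, a form of Hsp70 bound to ribosomes, meets chains as they are made. Yeast carries related genes for several of these steps, some expressed in growing cells and others mainly under stress. Heat shock factor Hsf1 binds heat shock elements, which are alternating GAA and TTC units, while Msn2 and Msn4 bind the stress response element AGGGG and are held inactive in cells that have ample glucose.

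Library totals lay between 15289163 and 20038052 counts, and a member received between 106 and 35392 counts in a library. Together the members made up 0.305 to 0.430% of a glucose library and 0.960 to 0.997% of a glycerol library. Transcripts of cytosolic ribosomal proteins took 24.1 to 27.5% of the counts in glucose and 5.45 to 6.47% in glycerol, and the TMM factors of edgeR were used to absorb this difference in composition. Over the tested genes the log2 fold changes had a median of 0.03 with these factors and of 0.52 with library totals alone, so every change below is relative to other transcripts. An amount per cell cannot be told from these counts. As a check of the carbon source, the glycerol kinase gene GUT1 was higher by 3.14 in glycerol and the glucose transporter gene HXT3 had a log2 fold change of -6.45. The marker genes LEU2, MET17 and URA3 had 0 counts in every library, whereas HIS3, of which BY4741 lacks an internal part, had between 662 and 1216.

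The regulatory sequences of the members are shown first, as a description of the genes. In the 500 bases before the coding start (S288C R64 genome of RefSeq, both strands), the heat shock element was searched as GAANNTTCNNGAA, which reads TTCNNGAANNTTC on the other strand. It occurred before 4 of the 10 members, HSP42, HSP104, SSA1 and SSA2. Of the 5831 tested protein-coding genes with a window of that length, 1.47% held it. Only exact matches to this pattern were searched, so a member without one may hold a heat shock element of another form. The runs are given 5′ to 3′ on the strand of the gene, with the matches in capitals and 6 bases on each side. In HSP42, HSP104 and the first run of SSA1, a match on each strand overlapped the other.
HSP42, chrIV:806372-806401, plus strand: taaaagTTCTGGAAGGTTCGCGAAttgaga
HSP104, chrXII:88315-88344, plus strand: atatttTTCCAGAATTTTCTAGAAgggtta
SSA1, chrI:141772-141801, minus strand: taaactTTCCAGAACATTCTAGAAagaaag
SSA1, chrI:141674-141698, minus strand: ttctttTTCCAGAACGTTCcatcgg
SSA2, chrXII:97700-97724, minus strand: gtttttTTCTAGAACATTCcatcga

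The stress response element AGGGG, or CCCCT on the other strand, occurred at least once before 34.3% of the same genes and at least 2 times before 8.25%. Among the members, HSP26, HSP42, HSP104 and SSA4 held 3 matches each and HSP82 and SSA1 held 2. HSC82, SSA2, SSA3 and SSB1 held none, which says only that these letters were not in the window. SSA3, which rose 23.4-fold, had no exact match to either pattern in its window. SSA2, which did not pass the test, had a match to the heat shock pattern. Whether such matches bear on the changes was not tested. The matches of HSP26, SSA4 and HSP82 are shown with the element in capitals. These members held this element but no exact match to the heat shock pattern searched.
HSP26, chrII:381545-381561, plus strand: tgtgtaCCCCTaactcc
HSP26, chrII:381563-381579, plus strand: tgtgtaCCCCTaaagaa
HSP26, chrII:381698-381714, plus strand: tccctcCCCCTtatgcg
SSA4, chrV:364116-364132, plus strand: gaaaaaCCCCTcgggtc
SSA4, chrV:364151-364167, plus strand: gttcatAGGGGtgggat
SSA4, chrV:364404-364420, plus strand: taagcaAGGGGggaagc
HSP82, chrXVI:99011-99027, minus strand: tcacccCCCCTctctca
HSP82, chrXVI:98764-98780, minus strand: cgccacCCCCTaaaaca

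Of the 10 members, 8 rose in glycerol, SSB1 fell and SSA2 did not pass the test. The test was the quasi-likelihood test of edgeR, with Benjamini-Hochberg adjusted p-values and a threshold of 0.05. Of the 6330 genes tested, 41.7% were called higher and 40.1% lower, and the higher ones made up 50.9% of the calls, against 68.6% with library totals alone. The 8 members that rose were also those whose glycerol libraries all lay above all glucose libraries, which held for 43.0% of the tested genes, while the reverse held for SSB1 and for 40.8% of the tested genes. The median log2 fold change of the members was 2.47, against 0.03 for all tested genes, and the values ran from -2.56 for SSB1 to 6.22 for HSP26. Levels are given as normalized CPM per kb, that is CPM of the TMM-scaled library divided by the gene length, so that genes can be compared.

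**Figure D1:**
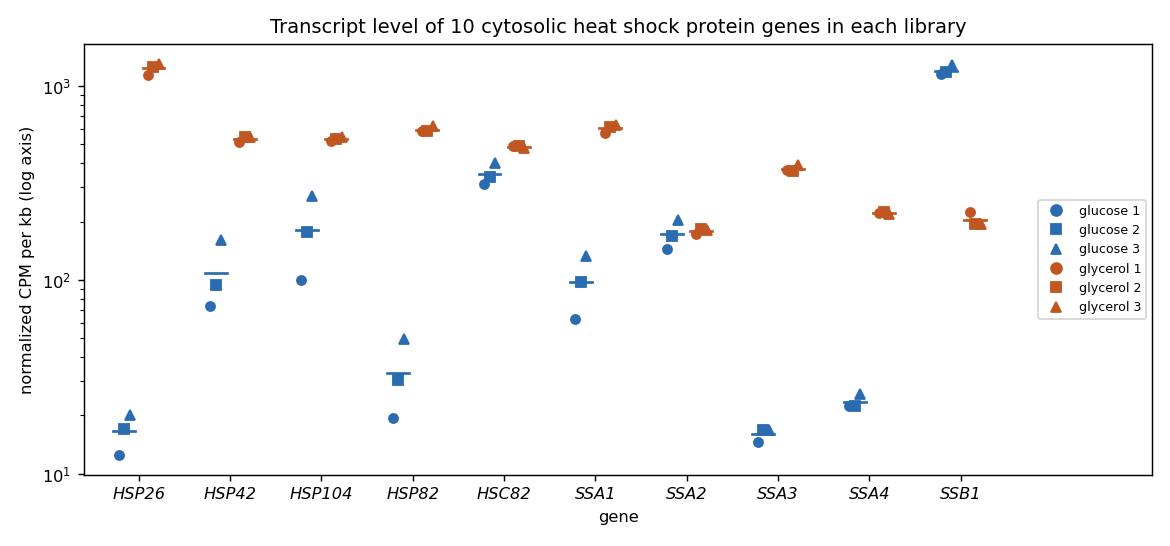
Normalized CPM per kb (log axis) of the 10 members in each of the 3 glucose (blue) and 3 glycerol (orange) libraries, with a bar at each group mean and a symbol for each replicate. HSP26 went from the second lowest mean in glucose, 16.5, to the highest in glycerol, 1235, and SSB1 from the highest, 1203, to 204.

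The small heat shock proteins and the disaggregase rose together, by very different amounts. HSP26 (YBR072W), whose product forms large shells that bind unfolded proteins, was at 12.4, 17.1 and 20.1 normalized CPM per kb in glucose replicates 1, 2 and 3 and at 1146, 1252 and 1309 in glycerol. Every glycerol library was far above every glucose library, a 74.7-fold rise and the largest among the members (log2 fold change 6.22, standard error 0.17, adjusted p = 1.4e-13 in edgeR). HSP42 (YDR171W), the small heat shock protein that gathers misfolded proteins into cytosolic foci, stood at 73.2, 94.4 and 160.0 in glucose and at 513.8, 549.1 and 544.5 in glycerol. The groups did not overlap, although glucose replicate 3 was 2.19-fold above replicate 1, and the rise was 4.91-fold (log2 fold change 2.30, standard error 0.21, adjusted p = 6.7e-08 in edgeR). HSP104 (YLL026W), the disaggregase, measured 99.3, 176.2 and 270.3 in glucose and 520.5, 534.3 and 545.9 in glycerol. Its rise of 2.93-fold was the smallest of these (log2 fold change 1.55, standard error 0.24, adjusted p = 2.6e-05 in edgeR), and glucose replicate 3 came closest to the glycerol level.

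Of the Hsp90 genes, the stress-induced one rose steeply and the constitutive one much less. HSP82 (YPL240C, chromosome XVI from 96496 to 98625) went from 19.4, 30.3 and 49.7 normalized CPM per kb in glucose to 584.9, 584.6 and 619.4 in glycerol. The glycerol libraries differed by at most 1.06-fold and lay well above all glucose libraries, an 18.0-fold rise (log2 fold change 4.17, standard error 0.25, adjusted p = 6.0e-10 in edgeR). HSC82 (YMR186W, chromosome XIII from 632355 to 634472) was at 313.3, 339.0 and 399.0 in glucose and at 489.1, 489.9 and 481.2 in glycerol. These groups did not overlap either, but the rise was only 1.39-fold (log2 fold change 0.47, standard error 0.12, adjusted p = 1.6e-03 in edgeR). Its size depended on the scaling. With library totals alone the log2 fold change was 0.97 for HSC82 and 4.66 for HSP82. The coding sequences of both genes were identical at 91.7% of 2133 aligned columns, with a longest identical run of 113 bases, and no stretch of 150 bases, the read length, occurred in both. Their first 60 coding bases, with the 2 differing positions in capitals, show how closely the genes resemble each other.
HSP82, chrXVI:98566-98625, minus strand: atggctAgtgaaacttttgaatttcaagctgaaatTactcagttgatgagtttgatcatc
HSC82, chrXIII:632355-632414, plus strand: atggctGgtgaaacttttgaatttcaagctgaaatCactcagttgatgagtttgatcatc

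The Ssa genes, which encode the main Hsp70 proteins of the cytosol, split into 3 that rose and 1 that did not pass the test. SSA3 (YBL075C), a stress-induced form, was at 14.5, 16.7 and 16.9 normalized CPM per kb in glucose and at 370.6, 363.7 and 393.1 in glycerol. This was a 23.4-fold rise, with close replicates in both groups (log2 fold change 4.55, standard error 0.13, adjusted p = 1.4e-13 in edgeR). SSA4 (YER103W), the other stress-induced form, measured 22.5, 22.3 and 25.8 in glucose and 222.4, 223.1 and 219.1 in glycerol, a 9.42-fold rise with the smallest standard error of the members (log2 fold change 3.24, standard error 0.11, adjusted p = 1.5e-12 in edgeR). SSA1 (YAL005C), which is expressed in growing cells and induced further by heat, went from 63.0, 97.2 and 133.4 to 574.0, 617.1 and 632.7. It rose 6.21-fold (log2 fold change 2.63, standard error 0.20, adjusted p = 8.8e-09 in edgeR), so that all glycerol libraries exceeded the highest glucose library.

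SSA2 (YLL024C), the constitutive form, was the exception. It stood at 144.5, 168.4 and 204.1 normalized CPM per kb in glucose and at 172.7, 183.5 and 181.5 in glycerol. The glycerol libraries fell inside the glucose range, and the log2 fold change was 0.06 (standard error 0.12, adjusted p = 0.683 in edgeR). Scaling decides this call, since with library totals alone the value was 0.55 (adjusted p = 6.0e-04 in edgeR). SSA1 and SSA2 were identical at 96.4% of 1929 aligned columns, and 35.6 and 35.7% of their 150-base windows occurred again elsewhere in the genome. How reads from such windows were counted is not given in the sources used here, so the values of this pair are uncertain. None of the windows of SSA3 and SSA4 recurred, and their coding sequences were identical with that of SSA1 at 74.5 and 74.3% of the columns. The first 60 coding bases of the family, with the 14 positions that vary in capitals, let these degrees of likeness be seen.
SSA1, chrI:141372-141431, minus strand: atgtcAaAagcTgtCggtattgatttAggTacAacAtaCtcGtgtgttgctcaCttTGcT
SSA2, chrXII:97426-97485, minus strand: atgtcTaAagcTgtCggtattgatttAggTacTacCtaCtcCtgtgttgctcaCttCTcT
SSA3, chrII:86389-86448, minus strand: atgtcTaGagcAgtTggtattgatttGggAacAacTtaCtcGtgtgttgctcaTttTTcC
SSA4, chrV:364589-364648, plus strand: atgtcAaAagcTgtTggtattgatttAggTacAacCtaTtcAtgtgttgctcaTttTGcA

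SSB1 (YDL229W), whose product is the Hsp70 of the ribosome, moved the other way. Its levels were 1152, 1177 and 1281 normalized CPM per kb in glucose and 223.7, 194.8 and 193.4 in glycerol. All glycerol libraries lay below all glucose libraries, a 5.90-fold fall (log2 fold change -2.56, standard error 0.12, adjusted p = 3.5e-11 in edgeR). Its near copy SSB2 (YNL209W), which is not among the members, also fell, from 1497, 1624 and 1800 to 723.0, 659.5 and 654.4, a smaller change of 2.42-fold (log2 fold change -1.27, standard error 0.12, adjusted p = 7.6e-08 in edgeR). The pair was identical at 97.5% of 1843 aligned columns with a common run of 563 bases, and 25.5% of the 150-base windows of each recurred, so the split of reads between them is uncertain. Their sum fell from 2844 ± 219.0 to 882.9 ± 55.3 normalized CPM per kb (SD, n = 3 each), a ratio of 3.22. This ratio does not depend on that split, although reads dropped for both genes would be missing from it. Reads dropped for SSB1 alone, where another annotated gene overlaps it, would also be missing and could change the ratio.

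Ratios between related genes within a library were compared next, since the scaling of a library cancels in them. The log2 ratio of HSP82 to HSC82 counts was -4.00, -3.48 and -2.996 in glucose and 0.27, 0.26 and 0.37 in glycerol. HSP82 thus had fewer counts than HSC82 in every glucose library and more in every glycerol library, and the ratio grew 13.8-fold (change 3.79 on the log2 scale). Relative to the constitutive SSA2, the ratio changed by 4.48 for SSA3, by 3.17 for SSA4 and by 2.63 for SSA1. The order of the stress-induced pair was turned over. The log2 ratio of SSA4 to SSA3 went from 0.54 ± 0.12 to -0.78 ± 0.07 (SD, n = 3 each). HSP26 gained on HSP42 by 3.87, and SSB1 lost against SSB2 by a change of -1.29. Ratios with SSA1, SSA2, SSB1 or SSB2 carry the uncertainty about reads from recurring windows given above. In each of the 7 pairs the groups did not overlap, and the exact two-sided permutation test gave p = 0.1, the smallest value that 3 against 3 libraries allow (0.1 also when adjusted over the pairs), so that none could pass the threshold.

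**Figure D2:**
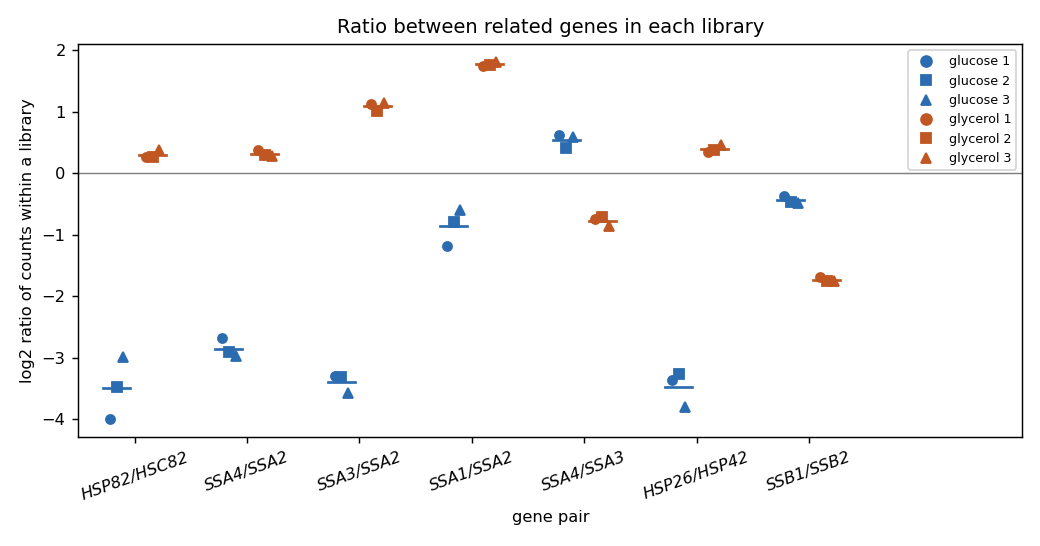
Log2 ratio of the counts of 2 related genes within each library (vertical axis) for the 7 pairs, glucose in blue and glycerol in orange, with bars at the group means. The ratio of HSP82 to HSC82 moved from a mean of -3.49 to 0.30, and the ratios SSA4/SSA3 and SSB1/SSB2 moved down.

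The make-up of each family changed accordingly. Per length, HSP82 supplied 8.37 ± 2.62% of the Hsp90 transcripts of glucose libraries and 55.0 ± 1.07% of those of glycerol libraries (SD, n = 3 each). SSA2 supplied 56.0 ± 2.78% of the Ssa transcripts in glucose and 12.9 ± 0.25% in glycerol, while SSA1 went from 30.9 ± 4.73 to 43.9 ± 0.91% (SD, n = 3 each). The stress-induced SSA3 and SSA4 together had 15.1, 12.8 and 11.2% in the glucose libraries and 44.3, 42.3 and 42.9% in the glycerol libraries. No library of one group reached the range of the other, and the exact permutation test again stood at its smallest p of 0.1. Within the small heat shock proteins, the share of HSP26 went from 13.7 ± 2.22 to 69.7 ± 0.81% (SD, n = 3 each). Summed over genes, Hsp90 transcripts went from 383.6 ± 59.3 to 1083 ± 15.2 normalized CPM per kb, a ratio of 2.82. Ssa transcripts went from 309.7 ± 67.9 to 1384 ± 43.4, a ratio of 4.47, and those of the small heat shock proteins from 125.7 ± 48.8 to 1771 ± 99.8, a ratio of 14.1 (SD, n = 3 each). These sums depend on the scaling and are given without a test. If reads from the recurring windows of SSA1 and SSA2 were not counted, their shares and the Ssa sum would be too low. The shares of SSA3 and SSA4 would then be too high, which was not tested.

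**Figure D3:**
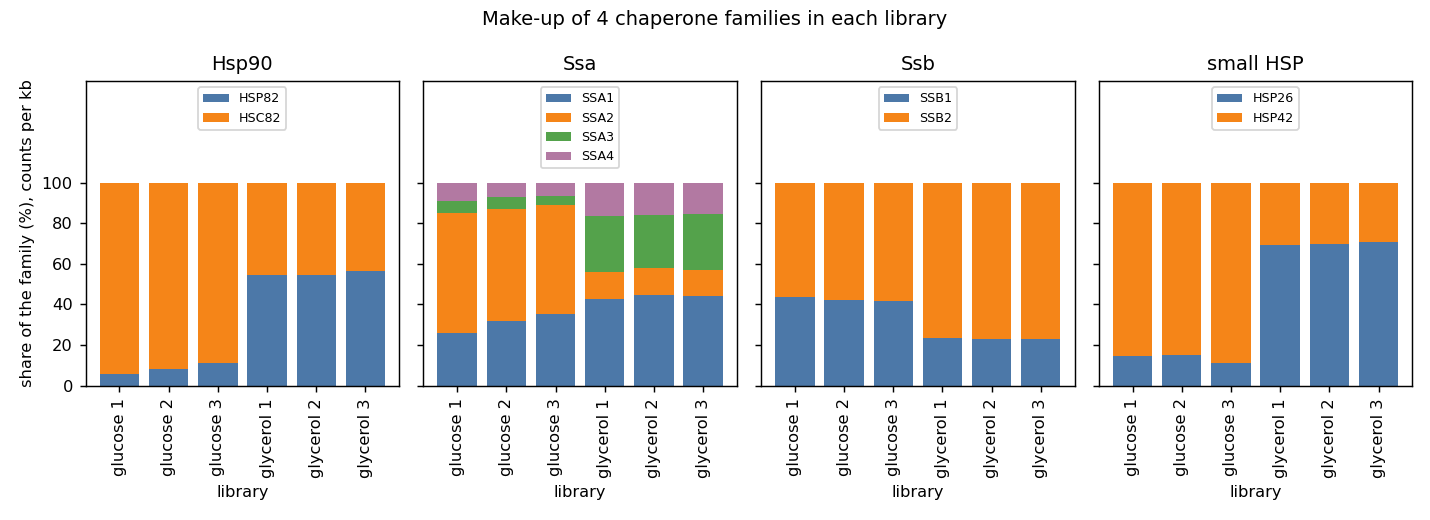
Share of each gene in its family (vertical axis, percent of counts per kb) in each of the 6 libraries, for Hsp90, Ssa, Ssb and the small heat shock proteins. HSP82 occupied 5.84 to 11.1% of the Hsp90 bar in glucose and 54.4 to 56.3% in glycerol.

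The order of the members by level was rearranged as well. In glucose SSB1 led with 1203 ± 68.5 normalized CPM per kb, followed by HSC82 with 350.4 ± 44.0 and then by HSP104, SSA2, HSP42, SSA1, HSP82, SSA4, HSP26 and SSA3 (SD, n = 3 each). The neighbours from HSP104 to SSA1 overlapped in their libraries, as did HSP82 with SSA4 and HSP26 with SSA3. In glycerol HSP26 led with 1235 ± 82.3, followed by SSA1, HSP82, HSP42, HSP104, HSC82, SSA3, SSA4, SSB1 and, last, SSA2 with 179.2 ± 5.73. Here SSA1 overlapped HSP82, HSP42 overlapped HSP104 and SSA4 overlapped SSB1, and the other neighbours were apart. From HSP82 to HSC82 the glycerol means lay close together, between 486.7 and 596.3. Reads shared with a copy or an overlapping gene may have lowered the levels of SSA1, SSA2 and SSB1 in this order.

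The glucose replicates disagreed about some members far more than the glycerol replicates did. For HSP104 the highest glucose library was 2.72-fold above the lowest, for HSP82 2.56-fold, for HSP42 2.19-fold and for SSA1 2.12-fold, against a median of 1.23-fold over all tested genes. Between 95.1 and 96.9% of the tested genes had a smaller ratio. SSA3, SSA4 and SSB1 varied by no more than 1.16-fold in the same libraries. In glycerol the ratio was between 1.02 and 1.16 for every member. For 9 of the 10 members, all but SSA4, glucose replicate 1 was the lowest and replicate 3 the highest, an arrangement shared by 27.5% of the tested genes. Among 16 genes of the general stress response it held for 13, with a median ratio of 1.92, and ribosomal protein transcripts took 27.5, 27.3 and 24.1% of the counts in replicates 1, 2 and 3. Whether these libraries differed in growth stage or handling was not tested. With glucose replicate 3 left out the log2 fold changes of HSP104 and HSP82 were 1.95 and 4.58, and with replicate 1 left out they were 1.26 and 3.90, so the direction and the calls did not rest on either library.

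**Figure D4:**
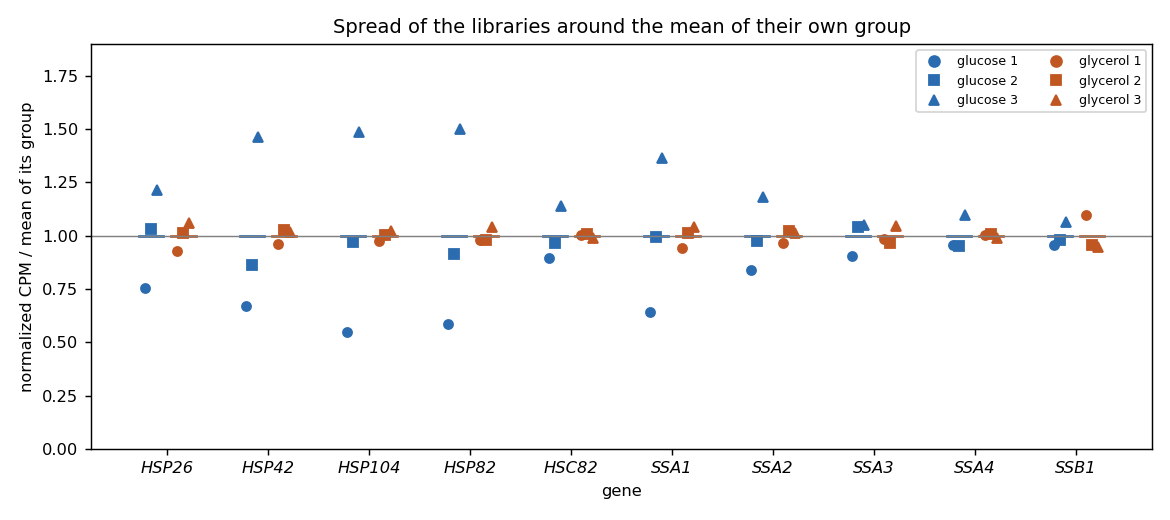
Normalized CPM of each member divided by the mean of its own group (vertical axis) in the 6 libraries. The glucose libraries of HSP42, HSP104, HSP82 and SSA1 spread widely around 1, with replicate 1 lowest and replicate 3 highest, whereas the glycerol libraries stayed close to 1.

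The partners of these chaperones were read from lists drawn up from general knowledge of yeast genes. Earlier results of these data were known when this and the later lists were drawn up, so their counts only describe the genes listed. Among 15 J-domain proteins and nucleotide exchange factors of cytosolic Hsp70, 6 rose (40.0%), 7 fell (46.7%) and 2 did not pass the test, with a median log2 fold change of -0.19. These shares are near those of all tested genes, 41.7% higher and 40.1% lower. The rises were led by the J-protein gene APJ1 (3.86), the Hsp110 gene SSE2 (2.54) and the exchange factor gene FES1 (1.66). The lowest values belonged to the exchange factor gene SNL1 (-1.34) and to the J-protein genes JJJ2 (-0.95) and CAJ1 (-0.68). Among 12 Hsp90 co-chaperones 3 rose (25.0%) and 8 fell (66.7%), with a median of -0.49. The 3 were STI1, the scaffold that links Hsp70 to Hsp90 (2.12), AHA1, the activator of the Hsp90 ATPase (1.80), and the cyclophilin gene CPR6 (1.39). The phosphatase gene PPT1 (-2.64), the cyclophilin gene CPR7 (-2.13) and CDC37, which hands kinases to Hsp90 (-2.13), fell furthest. In the libraries in which HSP82 rose, CDC37 thus went from 352.3 ± 35.5 down to 80.5 ± 6.59 normalized CPM (SD, n = 3 each). With library totals alone, 8 of the Hsp70 partners rose and 2 fell, and 5 of the Hsp90 co-chaperones rose and 5 fell. Of the 6330 tested genes, 3605 were then called higher and 1652 lower.

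Chaperones that act at the ribosome followed SSB1. All 6 on the list fell, from the J-protein gene ZUO1 (-2.23), the nascent chain binding gene EGD1 (-1.95) and the atypical Hsp70 gene SSZ1 (-1.79) to EGD2 (-1.49), SSB2 (-1.27) and BTT1 (-0.58), with a median of -1.64. Of all tested genes, 40.1% were called lower. With library totals alone, 5 of the 6 were called lower, against 1652 of the 6330 tested genes. Cytosolic ribosomal protein transcripts, whose shares are given above, were lower in the same libraries.

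Other heat shock and stress genes mostly moved with the members. For comparison with the lists below, 41.7% of all tested genes were called higher and 40.1% lower. Of 10 genes for further heat shock proteins, sorting factors and ubiquitin, 9 rose and 1, HSP31, did not pass the test (-0.23), with a median of 3.07. The value of HSP31 was 0.26 with library totals alone, and it was called lower, at -0.23 with an adjusted p of 0.0240 in edgeR, when the replicate number entered as a block. HSP12, which encodes a small membrane-associated stress protein, was at 26.2 ± 1.68 normalized CPM in the glucose libraries and at 3061 ± 318.3 in the glycerol libraries (SD, n = 3 each). Its log2 fold change of 6.87 was above the 6.22 of HSP26. BTN2, which sorts misfolded proteins together with Hsp42, rose by 5.03, while its relative CUR1 rose by 0.35 and the coactivator gene MBF1 by 0.26. The call on MBF1 (adjusted p = 0.0355 in edgeR) was lost without glucose replicate 1, glycerol replicate 2 or glycerol replicate 3. HSP33 was at 3.90 with only 4 to 18 counts in a glucose library, and SNO4, one of its close copies on this list, had 1 to 2. Both met the count minimum only through the glycerol libraries. Without them, 7 of 8 genes were called higher and the median was 2.48. All 16 genes of the general stress response rose, from DDR2 (7.98), TKL2 (3.57) and ALD3 (2.68) to SOL4 (0.84), YGP1 (0.75) and the trehalose synthase gene TPS1 (0.47), with a median of 2.05. Several of them also respond to carbon source by other routes. Of 7 stress regulators 6 rose, namely GIS1 (2.36), YAK1 (1.41), RIM15 (1.38), MSN2 (1.35), SKN7 (1.17) and HSF1 (1.05). MSN4 had a log2 fold change of -0.34 (adjusted p = 0.0137 in edgeR). The call on MSN4 was lost with library totals alone (0.16), with totals without ribosomal protein genes (-0.19), and without glucose replicate 3, glycerol replicate 2 or glycerol replicate 3.

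**Figure D5:**
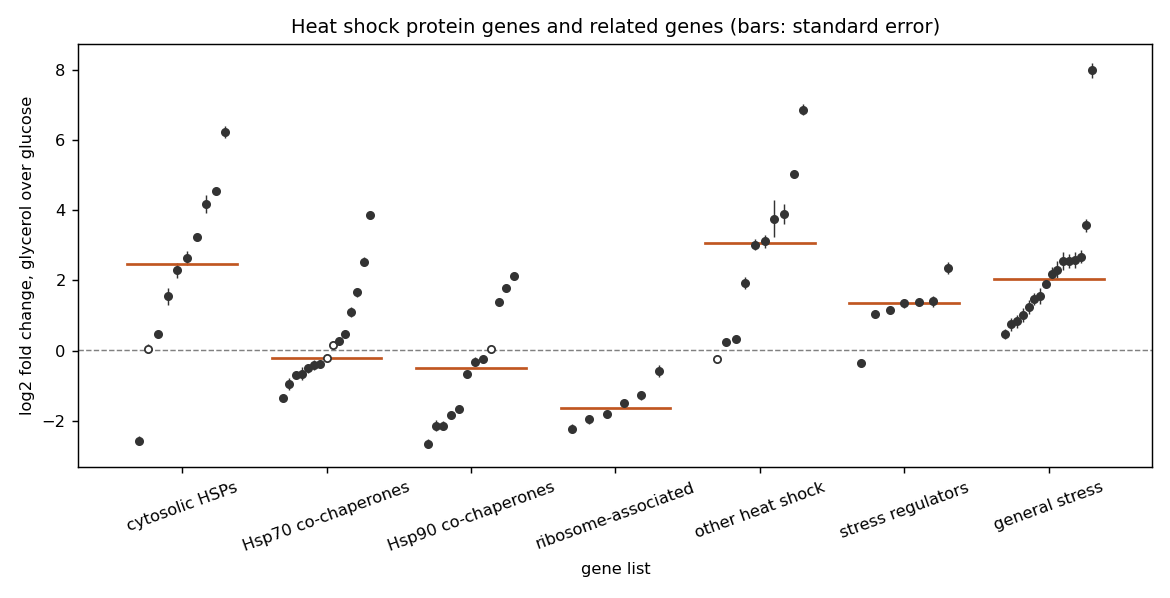
Log2 fold change of glycerol over glucose (vertical axis, bars showing the standard error) for the 10 members and 6 lists of related genes. Filled points passed an adjusted p of 0.05, orange lines mark the list medians and the dashed line marks the median of all tested genes, 0.03. The members' median of 2.47 lay above it and that of the ribosome-associated chaperones, -1.64, below it.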

How the data were processed

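RNA was measured in 6 libraries of BY4741, 3 in glucose and 3 in glycerol, grouped by the sample labels. The authors deposited whole-number read counts per gene, without normalization, and FPKM values, whose scaling used the gene length and a library size of 0.810 to 1.17 times the count total. Per the labels, fastp 0.20.1, HISAT2 2.2.1, featureCounts 2.0.1 and DESeq2 were used with the R64 build. The treatment of reads that map to several places is not given in the sources used here. Columns with the authors' own means, fold changes and p-values were not used. All 10 members and SSB2 had the same position in RefSeq R64.

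Genes were tested if 3 or more libraries had 10 or more counts (6330 genes), in R 4.3.3 with edgeR 4.0.16 (TMM, quasi-likelihood, group only, Benjamini-Hochberg over all tested genes, threshold 0.05). Standard errors came from the fold change and the F value. Ratios between genes used counts plus 0.5. Exact permutation tests used scipy 1.17.1, and the steps were tested on simulated data. Alternatives used other scalings and filters, DESeq2 1.42.0, limma 3.58.1 on log2(FPKM + 0.1), a replicate block and each library left out. The members and lists were chosen with earlier results of these data known. Named genes are the members, SSB2, the check genes, MSN2, SNO4, genes that overlap a member, and the 3 highest and 3 lowest of each list. Further genes were named for the spread of their glucose libraries.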

Additional observations from a re-analysis of the deposited data

How the results depend on the processing

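Of 408 values under an alternative, covering 33 results, 396 kept their direction and call, or stayed within 1.5 times a count or within 1 SD of a value without a test. With library totals alone, SSA2 passed the threshold at 0.55, so that 9 members were called higher. The Hsp70 partners then had 2 lower calls, the Hsp90 co-chaperones 5 higher and 5 lower, and the stress regulators 0 lower. The last also held with totals without ribosomal protein genes. Of the 6330 tested genes, 3605 were called higher and 1652 lower with library totals alone. Without each library in turn, the log2 fold change of SSA2 ran from -0.052 to 0.19, the lowest without glucose replicate 1, lower calls among the stress regulators from 0 to 1, and lower calls among the other heat shock genes from 0 to 1 (HSP31 without glucose replicate 1). Higher calls on that list ran from 7 to 9, with 7 without glycerol replicate 2 or 3, where SNO4 was not tested and MBF1 did not pass. The other 9 members kept their calls in all of these fits, with an adjusted p of at most 0.0112 for HSC82 in edgeR.

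Whether replicate numbers pair the libraries was checked over all tested genes, where deviations from the group means correlated at 0.171, 0.0592 and 0.197 for numbers 1, 2 and 3 and between -0.203 and 0.0394 for unequal numbers. Over the 5667 genes whose counts averaged 100 or more, the values were 0.25, 0.105 and 0.289. Every library correlated best with its own number, a hint from the data that numbers 1 to 3 may be paired, but 1 value over all tested genes was under 0.1 and nothing in the labels ties the numbers together, so the fit without the block was kept. With a replicate block, 8 members were called higher and 1 lower, as without it, and among the other heat shock genes lower calls went from 0 to 1 (HSP31). Among the members and SSB2, the counting of reads from near-identical sequence limits SSA1, SSA2, SSB1 and SSB2, and no alternative here addressed it. Recurring windows were not searched in the genes of the lists, such as HSP33 and its close copy SNO4.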

Other observations

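SSA1 and SSB1 each share bases with a second annotated gene on the opposite strand. YAL004W covers 648 bases (33.6%) of SSA1 and had 0 counts over all 6 libraries, and YDL228C covers 630 bases (34.2%) of SSB1 and had 8. The libraries carry no strand information, and whether reads on the shared bases were dropped from SSA1 and SSB1 was not tested. Such a loss would lower their levels in both groups. No other member overlapped a gene of the table.

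Among the general stress genes, HXK1, GPH1, PGM2, GLK1 and CTT1 were chosen here after their values were seen, for the spread of their glucose libraries. The highest of these libraries was 2.86-fold above the lowest for HXK1, 2.81-fold for GPH1, 2.36-fold for PGM2, 2.18-fold for GLK1 and 2.10-fold for CTT1, close to the 2.12 to 2.72-fold of SSA1, HSP42, HSP82 and HSP104. The general stress list had a median of 1.92, and its lowest value was 1.19 (ALD3). The stress-induced SSA3 and SSA4 were at 1.16 and 1.15 in the same libraries. The Hsp70 and Hsp90 partner lists had medians of 1.26 and 1.23, with highest values of 1.88 (JJJ3) and 1.62 (CPR7).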
